A study of Homo sapiens with 6 samples.

Results

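A set of 10 genes of the Hippo pathway and its transcriptional output were followed in lung cancer cells after knockdown of IFITM3. They were taken from a list by gene symbol and are YAP1, WWTR1, TEAD1, TEAD4, LATS2, AMOTL2, CTGF, CYR61, ANKRD1 and NT5E. All 10 were found among the 26485 gene symbols of the deposited count table, and all 10 were among the 14018 genes abundant enough to be tested. RNA came from PC-9, an EGFR-mutant non-small cell lung cancer line grown in culture. Cells with a stably expressed shRNA that depletes IFITM3 (shIFITM3) were set against cells with the control construct (shControl), with 3 biological replicates each. The labels name the control shControl but the table's columns ShEV, so it may have been either a hairpin or an empty vector. How many hairpins and clones were used is not stated in the labels. Each group therefore stands for a stable line under its hairpin, and an effect of the hairpin other than on IFITM3 cannot be told apart from the knockdown. No drug treatment is named in the labels. Depth was 21965506 to 23852371 total counts in shIFITM3 samples, and 21342028, 27493145 and 77228760 in the shControl samples.

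The Hippo pathway is a kinase cascade that restrains growth and responds to cell density, polarity, adhesion and tension of the actin cytoskeleton. Its kinases MST (genes STK3 and STK4) activate the LATS kinases. These phosphorylate the coactivators YAP and TAZ, which keeps YAP and TAZ out of the nucleus. Unphosphorylated YAP and TAZ enter the nucleus and activate genes with TEAD factors, which bind DNA. In EGFR-mutant lung cancer, YAP activity is known in the context of survival under EGFR inhibitors. These are RNA data and hold no measure of phosphorylation or location of any of these proteins. In such bulk RNA a higher level in each cell and a larger share of expressing cells cannot be told apart.

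The knockdown was visible in every sample. IFITM3 was at 10.4, 12.9 and 9.75 CPM (counts normalised to TMM-scaled library size) in shIFITM3 replicates 1, 2 and 3, against 57.0, 60.5 and 62.8 CPM in shControl replicates 1, 2 and 3. Differences between the groups were widespread: 56.1% of all tested genes passed the threshold of an adjusted p under 0.05 (edgeR quasi-likelihood test, Benjamini-Hochberg adjustment), 27.7% higher and 28.4% lower in shIFITM3. Across tested genes, log2 CPM correlated at r = 0.992 to 0.995 between samples of the same group and at 0.971 to 0.975 between samples of different groups, as a description over genes.

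Of the 10 genes, 7 rose, 2 fell and 1 (WWTR1) did not pass, against the shares of 27.7% higher and 28.4% lower over all tested genes. Grouped by role, all 6 target genes rose, by between 0.28 and 1.94 on the log2 scale, whereas of the 4 genes of the transcription complex 1 rose and 2 fell, all by less than 0.25. The median log2 fold change was 0.36 over the 10 genes and -6.33e-05 over all tested genes. CPM of the groups did not overlap for any of the 10, as in 60.9% of all tested genes. In a test against a change of 1.5-fold, 4 of the 10 passed, namely CTGF, CYR61, ANKRD1 and NT5E, where 7.95% of all tested genes passed. A list of YAP-TEAD targets is known to respond to other inputs too, so the counts describe these genes and not the activity of YAP.

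**Figure D1:**
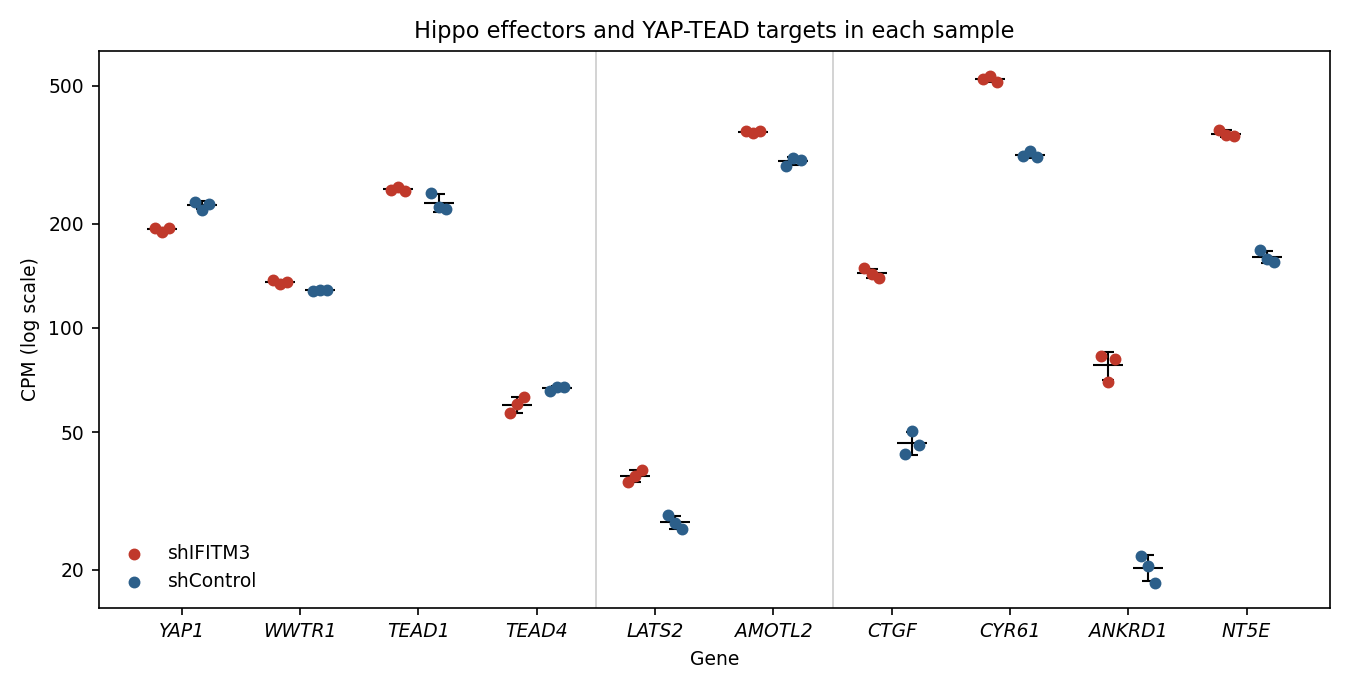
CPM of the 10 genes in each sample on a log axis, with points for samples, black bars for the mean and SD of 3 samples, shIFITM3 in red left of shControl in blue. The 4 genes of the transcription complex on the left differ little between groups, and ANKRD1 (69.6 to 82.8 CPM in shIFITM3, against 18.4 to 21.9 CPM in shControl) differs most.

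The promoters of 3 genes are shown because these had the largest rises. Each is the stretch of 250 bases upstream of the gene's start in RefSeq (GRCh38.p14, the assembly that hg38 names), written on the gene's own strand, 5′ to 3′. Capitals mark the TEAD core motif GGAATG, which was searched on both strands (CATTCC on the other). The ANKRD1 window is chr10:90921088-90921337 (minus strand), the CTGF window chr6:131951373-131951622 (minus strand) and the NT5E window chr6:85449833-85450082 (plus strand).
ANKRD1: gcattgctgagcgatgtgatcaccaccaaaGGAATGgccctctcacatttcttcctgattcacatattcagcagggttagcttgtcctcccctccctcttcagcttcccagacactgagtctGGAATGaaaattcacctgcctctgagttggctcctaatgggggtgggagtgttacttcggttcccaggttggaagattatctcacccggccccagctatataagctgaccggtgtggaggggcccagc
CTGF: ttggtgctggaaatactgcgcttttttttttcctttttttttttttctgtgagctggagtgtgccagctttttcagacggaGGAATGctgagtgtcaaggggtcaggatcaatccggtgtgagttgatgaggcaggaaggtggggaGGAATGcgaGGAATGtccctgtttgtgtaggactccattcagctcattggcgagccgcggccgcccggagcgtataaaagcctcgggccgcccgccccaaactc
NT5E: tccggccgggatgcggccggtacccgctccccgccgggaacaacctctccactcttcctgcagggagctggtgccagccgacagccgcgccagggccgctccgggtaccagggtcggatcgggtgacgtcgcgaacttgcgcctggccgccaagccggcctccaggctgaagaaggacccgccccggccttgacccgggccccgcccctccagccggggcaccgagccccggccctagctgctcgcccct

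The CTGF window held 3 copies of GGAATG, starting 169, 104 and 95 bases before the gene's start. The ANKRD1 window held 2 copies, starting 220 and 128 bases before it, and between them 1 AP-1 motif (TGANTCA, where N is any base) that starts 195 bases before it. The NT5E window held no match to either motif. Promoters of 7 of the 10 genes matched the RefSeq table by symbol, those of YAP1, WWTR1, LATS2, CTGF, ANKRD1, AMOTL2 and NT5E. The WWTR1 window (chr3:149703274-149703523, minus strand) lies inside the locus given for that gene below and not upstream of its outer end. The TEAD core was in 3 of these 7, with 1 copy in that of YAP1, and in 11.9% of 35116 RefSeq promoter windows of the same length. Of those windows 0.94% held at least 2 copies and 29 held at least 3. The AP-1 motif was in 1 of the 7 windows and in 6.57% of all windows, and no window of the 7 held a CArG box, the binding motif of SRF, which 1.16% of all windows held. A match in letters is a description of these windows and shows no binding, and YAP and TEAD are known to act largely through enhancers outside them.

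CTGF (CCN2, Entrez 1490, chromosome 6, 131948176 to 131951372, 5 exons after merging) encodes a secreted matrix-associated protein of the CCN family that is widely used as a readout of YAP and TAZ. Its level was 148, 143 and 139.7 CPM in shIFITM3 replicates 1, 2 and 3, against 43.2, 50.3 and 45.8 CPM in shControl replicates 1, 2 and 3. The lowest shIFITM3 sample was thus far above the highest shControl sample. CTGF rose 3.06-fold (log2 fold change 1.62, SE 0.0505, edgeR adjusted p = 2.98e-18), the 240th largest increase among tested genes. It has an antisense gene, AL133346.1, that shares 195 bases of exon sequence and has no row of its own in the table.

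CYR61 (CCN1, Entrez 3491, chromosome 1, 85580761 to 85583950), the other CCN family member among the 10, encodes a secreted protein that binds integrins. It was the most abundant of the 10 genes per length in both groups. Its level was 524, 533 and 513 CPM in shIFITM3 replicates 1, 2 and 3, against 313, 323 and 312 CPM in shControl replicates 1, 2 and 3. The samples of each group lay within a few percent of each other and the groups did not overlap. CYR61 rose 1.66-fold (log2 fold change 0.73, SE 0.0303, edgeR adjusted p = 8.00e-16), less than CTGF. The ratio of CTGF to CYR61 counts, which needs no scaling between libraries, was 0.283, 0.268 and 0.272 in shIFITM3 and 0.138, 0.155 and 0.147 in shControl. It did not overlap between the groups, and an exact two-sided permutation test gave p = 0.1, the smallest that 3 against 3 samples allow. Of the other CCN genes, WISP1, WISP2 and WISP3 (CCN4, CCN5 and CCN6) were too low to be tested, at 0.146 CPM at most in any sample. CCN3 was not analysed here.

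ANKRD1 (Entrez 27063, chromosome 10, 90912096 to 90921087) encodes a protein with ankyrin repeats that was described in cardiac muscle, where it is induced by stretch, and it is a common YAP target in epithelial cells. Its level was 82.8, 69.6 and 81.2 CPM in shIFITM3 replicates 1, 2 and 3, against 21.9, 20.6 and 18.4 CPM in shControl replicates 1, 2 and 3. Replicate 2 was the lowest of the shIFITM3 samples and still more than 3 times the highest shControl sample. With a 3.84-fold rise (log2 fold change 1.94, SE 0.0690, edgeR adjusted p = 3.91e-17) it had the largest change of the 10 genes and the 145th largest increase of all tested genes. The ratio of ANKRD1 to CTGF counts was 0.558, 0.487 and 0.581 in shIFITM3, against 0.507, 0.409 and 0.402 in shControl. These ratios overlapped between the groups (exact two-sided permutation p = 0.2).

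NT5E (Entrez 4907, chromosome 6, 85450083 to 85495784) encodes CD73, an enzyme on the cell surface that makes adenosine from AMP. Its level was 373, 361 and 357 CPM in shIFITM3 replicates 1, 2 and 3, against 168, 158 and 155 CPM in shControl replicates 1, 2 and 3. NT5E rose 2.27-fold (log2 fold change 1.18, SE 0.0357, edgeR adjusted p = 1.67e-18), with each group tightly grouped and a wide gap between them. There were 2.51, 2.52 and 2.56 NT5E counts per CTGF count in shIFITM3, against 3.89, 3.14 and 3.39 in shControl, a lower ratio in every shIFITM3 sample (exact two-sided permutation p = 0.1).

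LATS2 and AMOTL2 are targets of YAP and TEAD whose products act back on YAP. LATS2 (Entrez 26524, chromosome 13, 20973036 to 21061586) encodes a kinase that phosphorylates YAP and TAZ. It was at 35.9, 37.4 and 38.8 CPM in shIFITM3 replicates 1, 2 and 3, against 28.8, 27.3 and 26.2 CPM in shControl replicates 1, 2 and 3. LATS2 rose 1.37-fold (log2 fold change 0.45, SE 0.0634, edgeR adjusted p = 1.85e-06), and every shIFITM3 sample was above every shControl sample. Its paralog LATS1 was at 38.8, 33.7 and 35.1 CPM in shIFITM3, against 32.1, 33.5 and 31.5 CPM in shControl, and did not pass (log2 fold change 0.14, edgeR adjusted p = 0.0642, between 0.0265 and 0.346 over the alternatives). Counted per kilobase of merged exons, LATS2 made up 61.8 ± 2.47% of the LATS1 and LATS2 sum in shIFITM3 and 56.7 ± 1.19% in shControl (SD, n = 3 each, exact permutation p = 0.1, the smallest possible).

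AMOTL2 (Entrez 51421, chromosome 3, 134355345 to 134375417) encodes an angiomotin, a scaffold at cell junctions that can hold YAP in the cytoplasm. It was at 369.6, 364 and 370.02 CPM in shIFITM3 replicates 1, 2 and 3, against 294, 309 and 305 CPM in shControl replicates 1, 2 and 3. The rise was 1.21-fold (log2 fold change 0.28, SE 0.0312, edgeR adjusted p = 4.70e-08), small but with no overlap between groups. The angiomotin family moved in both directions. AMOTL1 also rose (0.25, edgeR adjusted p = 1.88e-06), while AMOT fell to 64.3 ± 2.66 CPM in shIFITM3, against 98.3 ± 4.25 CPM in shControl (log2 fold change -0.62, edgeR adjusted p = 8.03e-11). Per exon length, AMOTL2 made up 64.9 ± 0.565% of the family in shIFITM3 and 60.3 ± 0.864% in shControl, while AMOT made up 7.97 ± 0.297% in shIFITM3 and 13.8 ± 0.428% in shControl (SD, n = 3 each). The summed level of the family was 94.8 ± 0.666 CPM per kilobase in shIFITM3 and 83.8 ± 1.14 in shControl.

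The coactivator genes differed less between the groups, and in opposite directions. YAP1 (Entrez 10413, chromosome 11, 102110447 to 102233424), which encodes YAP, was at 194, 189.5 and 194 CPM in shIFITM3 replicates 1, 2 and 3, against 232, 219 and 228 CPM in shControl replicates 1, 2 and 3. It fell to 0.851 times the control level (log2 fold change -0.23, SE 0.0348, edgeR adjusted p = 4.24e-06), and all shIFITM3 samples were below all shControl samples. WWTR1 (Entrez 25937, chromosome 3, 149517235 to 149724788), which encodes TAZ, was at 137, 134 and 135 CPM in shIFITM3, against 128, 129 and 129 CPM in shControl. The groups did not overlap, but the difference of 0.08 on the log2 scale (SE 0.0374) did not pass (edgeR adjusted p = 0.0870). It passed when genes had to reach 50 counts in at least 3 samples to be tested (adjusted p = 0.0449), and adjusted p ranged up to 0.222 over 15 other settings. Antisense genes share 628 bases of exon sequence with YAP1 and 795 with WWTR1. The one at WWTR1, WWTR1-AS1, was at 0.391 to 0.636 CPM in shIFITM3 and 0.328 to 0.471 CPM in shControl, and the one at YAP1 has no row in the table.

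Since library scaling cancels within a sample, the balance of the 2 coactivator genes was also expressed as a share. Per kilobase of merged exons, WWTR1 made up 34.7%, 34.6% and 34.3% of the sum of both in shIFITM3 replicates 1, 2 and 3, against 29.2%, 30.6% and 29.7% in shControl replicates 1, 2 and 3. The shares did not overlap and differed by 4.69 percentage points (exact two-sided permutation p = 0.1, the smallest possible). YAP1 remained the larger part in all 6 samples. The ratio of CTGF to YAP1 counts was 0.747 ± 0.0237 in shIFITM3 and 0.206 ± 0.0219 in shControl (SD, n = 3 each). The ratio alone does not give the direction of either gene. In the tests of single genes above, CTGF rose and YAP1 fell.

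TEAD1 and TEAD4 encode factors that bind the GGAATG motif and recruit YAP or TAZ. TEAD1 (Entrez 7003, chromosome 11, 12674421 to 12944737) was at 249.6, 255 and 249 CPM in shIFITM3 replicates 1, 2 and 3, against 245, 223 and 221 CPM in shControl replicates 1, 2 and 3. It rose 1.10-fold (log2 fold change 0.13, SE 0.0379, edgeR adjusted p = 0.00430). One shControl sample, replicate 1, lay close to the shIFITM3 samples. TEAD4 (Entrez 7004, chromosome 12, 2959397 to 3040676) was at 56.7, 60.2 and 63.1 CPM in shIFITM3, against 65.8, 67.3 and 67.5 CPM in shControl. It fell to 0.897 times the control level (log2 fold change -0.16, SE 0.0493, edgeR adjusted p = 0.00949). That call was lost without shIFITM3 replicate 1, the lowest sample (log2 fold change -0.12, adjusted p = 0.0681), and adjusted p ranged from 0.00416 to 0.0681 over the 15 settings.

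Of the TEAD paralogs outside the 10 genes, TEAD3 had a log2 fold change of 0.15 (edgeR adjusted p = 0.0144) and TEAD2 one of -0.03 (adjusted p = 0.655). The call of TEAD3 was lost without shIFITM3 replicate 1 (edgeR adjusted p = 0.0671) or shControl replicate 1 (0.0583). Summed per kilobase of exons, TEAD1 to TEAD4 together were at 86.6 ± 0.672 CPM per kilobase in shIFITM3 and 85.8 ± 1.35 in shControl, a difference smaller than the SD of the shControl samples. Within that sum, TEAD4 made up 30.5 ± 1.48% in shIFITM3 and 34.3 ± 0.568% in shControl, and TEAD1 28.2 ± 0.237% in shIFITM3 and 26.0 ± 1.71% in shControl (SD, n = 3 each). Neither share overlapped between the groups (exact permutation p = 0.1 for each, the smallest possible). For TEAD1 the gap was very narrow, with 27.96% in shIFITM3 replicate 3 and 27.90% in shControl replicate 1. The share of TEAD3 did not overlap either (23.5 ± 0.960% in shIFITM3 and 21.3 ± 0.798% in shControl), and that of TEAD2 did.

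**Figure D2:**
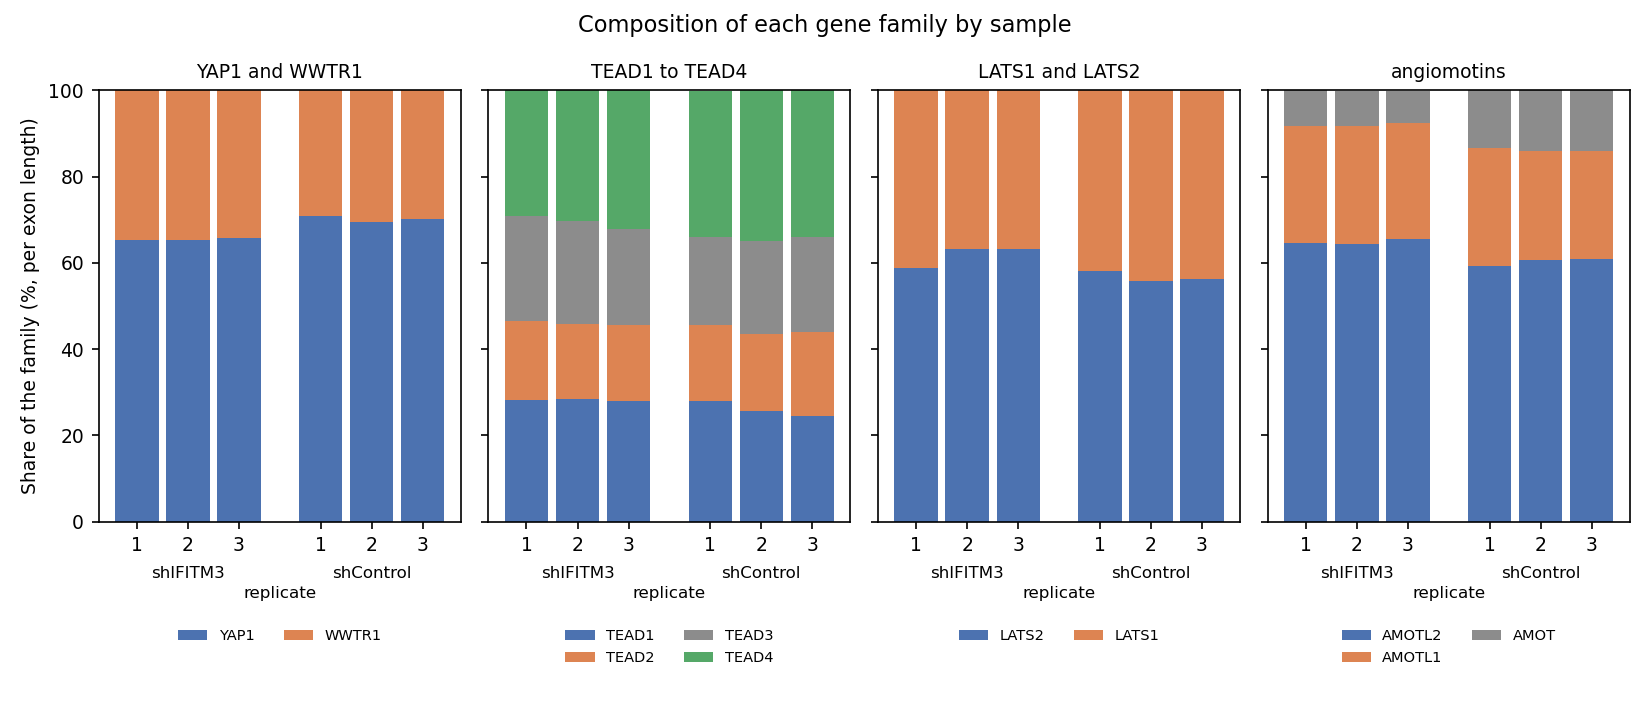
Share of each family, in percent of the summed CPM per kilobase of merged exons, for each sample, with shIFITM3 replicates left of shControl replicates in each panel. WWTR1 takes 34.3% to 34.7% of its pair in shIFITM3 samples, against 29.2% to 30.6% in shControl samples, and AMOT takes a smaller part of the angiomotins in shIFITM3 samples.

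Levels per exon length put the changes in proportion. In shIFITM3 the order from the highest was CYR61, NT5E, AMOTL2, CTGF, ANKRD1, YAP1, TEAD4, TEAD1, WWTR1 and LATS2, between 213 ± 3.99 and 6.70 ± 0.256 CPM per kilobase. In shControl it was CYR61, AMOTL2, YAP1, NT5E, TEAD4, TEAD1, CTGF, WWTR1, ANKRD1 and LATS2, between 129 ± 2.68 and 4.92 ± 0.227 CPM per kilobase. Neighbours whose samples overlapped were AMOTL2 and CTGF in shIFITM3, and YAP1 and NT5E as well as TEAD1 and CTGF in shControl. ANKRD1 was thus below all 4 genes of the transcription complex in shControl, at 10.2 ± 0.889 CPM per kilobase, and above all 4 in shIFITM3, at 39.4 ± 3.64. Lengths are of all GENCODE 29 exons of a gene merged, so genes with long rarely used exons may be understated. How often the exons of a long gene such as TEAD1 (10279 bases) are used was not measured here.

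**Figure D3:**
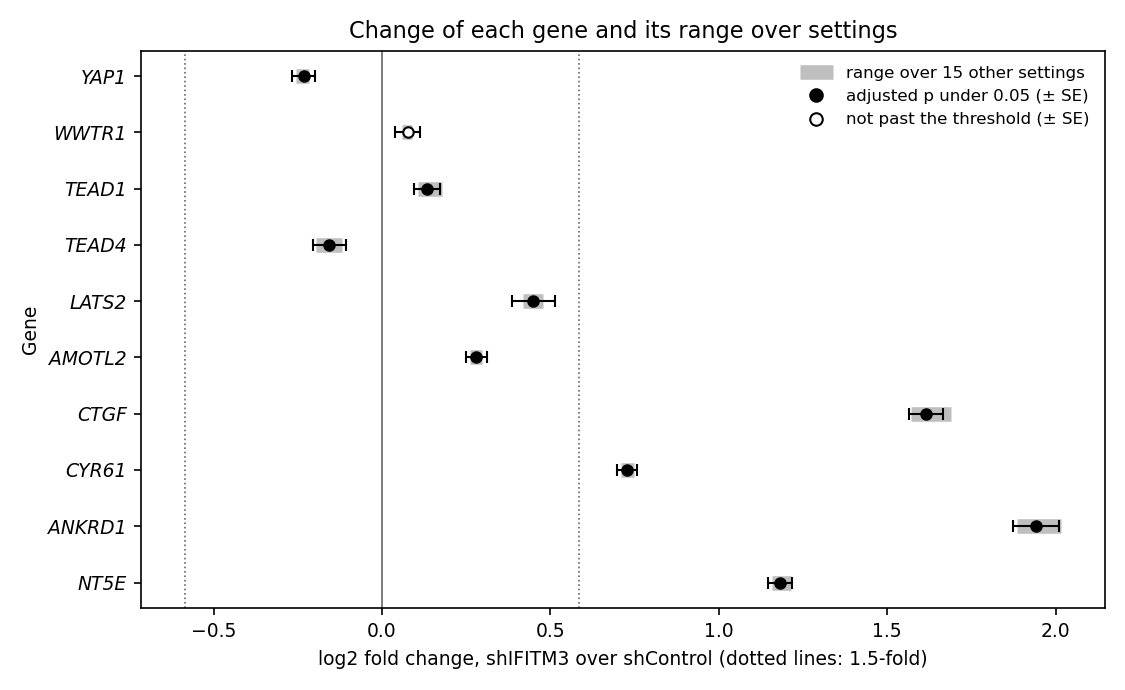
Log2 fold change of each gene, shIFITM3 over shControl, with points and error bars (SE) from edgeR and grey bars for the range over 15 other settings. Filled points passed an adjusted p of 0.05, the open point (WWTR1) did not, and CTGF, CYR61, ANKRD1 and NT5E lie beyond the dotted line of a 1.5-fold increase.

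In the main edgeR fit, the upstream kinases and adaptors of the pathway were higher or not called. Of 14 tested, 8 rose and 0 fell, with a median log2 fold change of 0.21, where 27.7% of all tested genes were higher, 28.4% lower and 56.1% called in either direction. None of the 14 fell at an unadjusted p under 0.05 either, nor in DESeq2 or limma-voom. A positive log2 fold change was seen in 12 of the 14, and the lowest value was -0.08. Under upper-quartile scaling 9 were called, and with the deepest library thinned 10. The direction of those added calls is not given here. NF2, which encodes Merlin, a membrane-linked activator of the LATS kinases, was at 115.6 ± 5.10 CPM in shIFITM3 and 59.0 ± 0.957 CPM in shControl (log2 fold change 0.97, SE 0.0450, edgeR adjusted p = 6.47e-15). It was the 1 gene of this list to pass the test against 1.5-fold. SAV1 (0.63), the scaffold of the MST kinases, STK4 (0.46), which encodes MST1, and WWC1 (0.36), which encodes the adaptor KIBRA, also rose, each with an edgeR adjusted p of 1.19e-09 or less.

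Of 16 junction and polarity regulators of YAP 7 were higher and 5 lower (median 0.19), beside 27.7% higher and 28.4% lower over all tested genes. FRMD6 (0.80), a membrane-linked activator of the pathway, rose, as did PTPN14 (0.49), a phosphatase that binds YAP. AMOT, described above with its family, fell. In the DESeq2 analysis 6 rose and 3 fell. Of 9 tested TEAD paralogs and cofactors outside the 10 genes 3 rose and 4 fell (median -0.03), beside the same shares over all tested genes. The nuclear receptor coactivator NCOA3 (0.50) rose, and NCOA1 (-0.40), VGLL1 (-0.35) and VGLL3 (-0.32) fell. VGLL1 and VGLL3 encode proteins that bind TEAD at the surface that YAP uses.

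Of 22 further YAP-TEAD targets 14 rose and 5 fell, with a median log2 fold change of 0.33, against 27.7% higher and 28.4% lower over all tested genes. CRIM1, a transmembrane protein that binds growth factors, was at 506 ± 4.09 CPM in shIFITM3 and 308 ± 14.3 CPM in shControl (log2 fold change 0.72, SE 0.0330, edgeR adjusted p = 5.81e-15). The targets did not all move the same way. IGFBP3, an IGF-binding protein, and CCDC80, a matrix protein, had the largest falls, with log2 fold changes of -1.53 (SE 0.0348) and -0.96 (SE 0.0408), and the edgeR adjusted p was 1.07e-15 or less for both. Both are thus opposite in direction to the 6 targets among the 10 genes. PTPN14 is counted here and among the junction regulators.

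CTGF, CYR61 and ANKRD1 are also known as targets of SRF with its actin-sensing cofactors MRTF, and TEAD sites often lie near AP-1 sites, so genes of both systems were listed. Of 20 tested SRF-MRTF genes of the actin cytoskeleton 14 rose and 2 fell (median 0.24), against 27.7% of all tested genes higher and 28.4% lower. SRF itself was at 103 ± 5.15 CPM in shIFITM3 and 65.4 ± 3.20 CPM in shControl (log2 fold change 0.65, SE 0.0483, edgeR adjusted p = 3.99e-11), and CALD1 (0.63) and ZYX (0.53), which encode actin-associated proteins, rose. FILIP1L (2.69) had the largest change of the list, though its place among SRF targets is less well established than that of the others. Of 9 AP-1 subunit genes 4 rose and 3 fell (median 0.29), with JUND (1.11), JUNB (0.30) and FOSL1 (0.29) higher and JUN (-0.32) lower, and the 3 that fell of 9 are near the 28.4% over all tested genes. How far either system bears on the 10 genes was not tested.

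**Figure D4:**
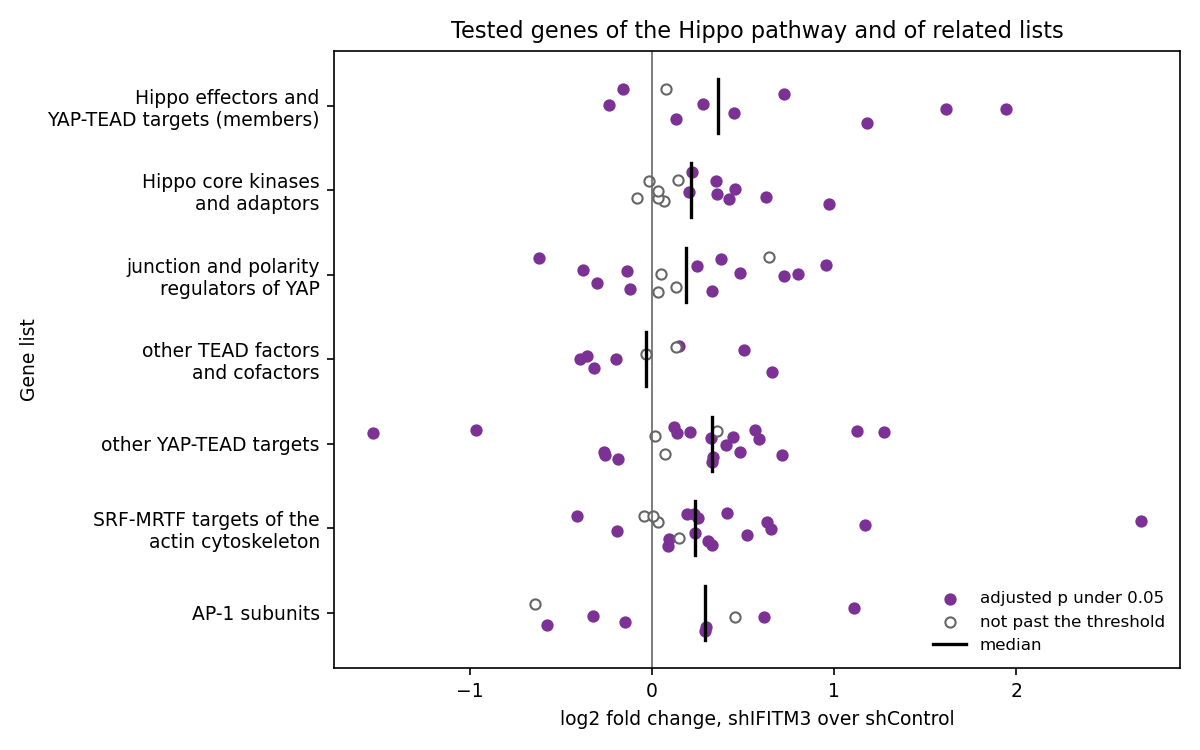
Log2 fold change, shIFITM3 over shControl, of the tested genes of each list, with filled points for genes past an adjusted p of 0.05, open points for the others and black ticks for the median of the list. Medians lie between -0.03 and 0.36, and the other YAP-TEAD targets hold both the falls of IGFBP3 (-1.53) and CCDC80 (-0.96) and the rise of CRIM1 (0.72).

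Markers of other cell types were looked at beside these results, because CTGF, CYR61 and ANKRD1 are high in fibroblasts. All 6 epithelial markers were abundant, with a summed level of 7846 to 8058 CPM in shIFITM3 samples and 9310 to 9431 CPM in shControl samples, and they did not move as one. CDH1 (-0.60), KRT8 (-0.50) and KRT18 (-0.29) fell, EPCAM rose by 0.09 (edgeR adjusted p = 0.0225), a call lost without shIFITM3 replicate 1 or 3 or shControl replicate 2 (adjusted p = 0.0676, 0.184 and 0.128), and KRT19 (0.03, adjusted p = 0.366) and KRT7 (-0.03, adjusted p = 0.240) did not pass. Of 8 fibroblast markers 7 were too low to be tested, at 0.208 CPM at most in any sample, and the summed level of the list, nearly all of it COL1A1, was 10.00 to 13.9 CPM in shIFITM3 samples and 9.21 to 10.5 CPM in shControl samples. COL1A1 had a log2 fold change of 0.29 (edgeR adjusted p = 0.0381), with overlapping groups, and the call was lost in DESeq2 (adjusted p = 0.0963) and without shIFITM3 replicate 3, shControl replicate 2 or shControl replicate 3 (edgeR adjusted p = 0.280, 0.163 and 0.0930). Of 5 leukocyte markers 4 were too low to be tested, at 0.522 CPM at most. CD68, also a lysosomal protein of other cells, was at 75.9 ± 2.94 CPM in shIFITM3 and 65.8 ± 4.22 CPM in shControl. The 3 endothelial markers summed to 2.83 to 3.56 CPM in shIFITM3 samples and 3.14 to 4.10 CPM in shControl samples. Among them PECAM1 fell and was at 0.842 ± 0.0905 CPM in shIFITM3 and 2.70 ± 0.360 CPM in shControl (log2 fold change -1.66, edgeR adjusted p = 1.21e-05). CDH5 rose and was at 2.04 ± 0.309 CPM in shIFITM3 and 0.666 ± 0.288 CPM in shControl (log2 fold change 1.68, edgeR adjusted p = 0.000127). VWF was at 0.335 CPM at most. The untested markers of fibroblasts, COL1A2 and PDGFRB among them, were thus at 0.208 CPM at most in any sample. Those of leukocytes, PTPRC among them, were at 0.522 CPM at most. COL1A1 and CD68 were well above these levels in both groups.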

How the data were processed

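One table of unnormalised counts by gene symbol, deposited by the authors, covers the 6 samples. The submitters' processing notes name HISAT2 2.2.1, fastp 0.23.4, featureCounts (Subread 2.0.6), SAMtools 1.20 and FastQC 0.12.1, with genome build hg38. Which annotation and strand setting were used is not given in the sources used here. Per the labels' protocols, libraries were made with a stranded mRNA kit. Of nonzero counts in genes with fewer than 8 counts in every sample, 78.1% to 84.7% were even, so counts may come in pairs.

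In R 4.3.3 with edgeR 4.0.16, genes were filtered with filterByExpr by group and scaled by TMM (factors 0.995 to 1.006). The 14018 genes kept were fitted on group (glmQLFit), and glmQLFTest gave two-sided p-values, adjusted after Benjamini and Hochberg over them all. SE is the absolute log2 fold change over the square root of F. Fits were also run on simulated data with 200 changed genes, far fewer than were called here, and the outcome is not reported here. Replicates of a group differed by more than the noise of single counts (chi-square per gene 2.78 to 5.06), and counts in pairs would raise that noise. Alternatives were other scalings and filters, DESeq2 1.42.0, limma-voom (limma 3.58.1), a replicate block, a thinned deep library, a test against 1.5-fold (glmTreat) and each replicate left out. Exact permutation tests used scipy 1.17.1. The members and the lists were chosen with earlier results of these data known, and no set test was made. Named beside the members are IFITM3, paralogs of members shown with their families, and up to 4 genes per list with the smallest p; some genes that this rule takes are not reported here. KRT19 and KRT7 were added after their values were seen, to complete the epithelial list. Exon lengths are from GENCODE 29 and loci from RefSeq GRCh38.p14, where CTGF and CYR61 matched as older symbols.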

Additional observations from a re-analysis of the deposited data

How the results depend on the processing

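Over the 15 settings other than the test against 1.5-fold, YAP1, TEAD1, LATS2, CTGF, CYR61, ANKRD1, AMOTL2 and NT5E kept their direction and their call in every one. CTGF ranged from 1.57 to 1.69 on the log2 scale, ANKRD1 from 1.88 to 2.02, NT5E from 1.16 to 1.21 and CYR61 from 0.71 to 0.75, and YAP1 ranged from -0.26 to -0.22. Leaving out one replicate gave 7 members higher each time and 1 to 2 lower, the lower count without shIFITM3 replicate 1, where TEAD4 was not called. WWTR1 passed under the filter of 50 counts. Against a 1.5-fold change 807 of the 14018 tested genes passed as higher and 308 as lower, 7.95% in either direction. Of the members 4 were higher and 0 lower (0 lower at an unadjusted p under 0.05 too). Further YAP-TEAD targets kept 4 calls, 2 higher and 2 lower. Only calls of higher genes were kept by core kinases (1), junction regulators (2), SRF-MRTF genes (1) and AP-1 subunits (1). TEAD cofactors kept 0 calls (0 at an unadjusted p under 0.05). A stricter test is the cause of the smaller counts by construction. Deviations of same-numbered samples from their group means correlated weakly (r = 0.00634 to 0.0330). Replicates 1 and 2 of shIFITM3 correlated best with their own number (r = 0.0157 and 0.0330), and replicate 3 did not. As all these r were small, the numbers were not taken as pairs. With the replicate block 3865 genes were higher and 4005 lower, with 7 members higher and 2 lower. Among the genes named outside the 10, the calls of EPCAM, COL1A1 and TEAD3 were lost in 4, 5 and 2 of these 15 settings, LATS1 passed in 4, and TEAD2 and KRT19, not called in any, changed sign once each, with ranges of -0.066 to 0.022 and -0.0032 to 0.063 on leaving out one replicate. Thinning the deepest library to 22871322 counts changed no member's call. The edgeR p-values set the difference between groups against the variation among 3 biological replicates of each line, estimated with information from all tested genes. They do not cover differences between hairpins or between clones. Small differences such as that of WWTR1 are at the limit of what 3 samples show.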
